A study of Homo sapiens with 10 samples.

Results

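The genes described here are 40 named genes of the integrated stress response and of amino acid supply. They comprise the sensor kinases and transcription factors of the response, its feedback genes, the enzymes that make serine, one-carbon units, asparagine, proline, cysteine and alanine, the transporters that bring amino acids into the cell, and 1 tRNA export factor. They were chosen by symbol, and the rule uses no measured value, but earlier results of these data were known when they were chosen. All 40 symbols were found among the 54628 in the deposited table, and 35 of them were among the 20125 genes with enough counts to test. NUPR1, CHAC1, STC2, PHGDH and SLC6A9 were not tested because their counts were too low.

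The samples were NK-92 cells, an established human natural killer cell line, grown in a medium called Artemis Medium-1 that held 2% human serum. Deferoxamine (DFO), a small molecule that binds iron, was given at 500 µM for 24 h or 6 h. PPMX-T003 (T003), an antibody that binds transferrin receptor 1, the receptor that brings transferrin-bound iron into cells, was given at 10 µg/mL for 24 h or 6 h. Untreated cells, labelled 0 h, were the control of all 4 treated groups, and each of the 5 groups had 2 libraries of polyadenylated RNA. All libraries come from this 1 line. Nothing in the labels says that the 2 libraries of a group came from separate cultures, so a p-value reflects only how far these samples spread, and that spread may be technical. There was no untreated group kept for 6 h or 24 h, so an effect of an agent and an effect of time in culture cannot be told apart.

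The summed counts per library were 107117892 to 143575614, and 23381 to 24330 genes had a count. The 40 genes took 0.423% to 0.444% of the counts in each library. Levels below are CPM (counts relative to library size) scaled by the TMM method (trimmed mean of M values), whose factors ran over 0.991 to 1.01. TFRC, the gene of the receptor that T003 binds, averaged 834 CPM with DFO for 24 h, 846 CPM with T003 for 24 h, 353 CPM with DFO for 6 h, 428 CPM with T003 for 6 h and 171 CPM in untreated cells, and it was called higher in each treated group. "Called" means an adjusted p under 0.05 in edgeR's quasi-likelihood test, with Benjamini-Hochberg adjustment over all 20125 genes. Of 14 NK cell markers, 13 were over 1 CPM in every library, with sums of 2610 to 2869 CPM over all groups. B cell, erythroid and fibroblast or epithelial markers summed to under 1 CPM in every library, and monocyte or macrophage markers to 2.22 to 3.38 CPM. Of 8 T cell markers, 3 were over 1 CPM in every library: CD3E (415 to 459 CPM), TRAC (14.7 to 24.6) and TRBC1 (18.2 to 21.5). The T cell genes CD3G and CD8B were at 0 throughout. In bulk RNA, fewer cells with a transcript and less of it per cell cannot be told apart.

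When amino acids, haem or other supplies run short, kinases such as GCN2 (EIF2AK4, which senses uncharged tRNA) and HRI (EIF2AK1, which senses haem) phosphorylate the initiation factor eIF2. Translation then falls in general, but that of ATF4 rises through upstream reading frames in its mRNA, so ATF4 activity is set largely at the protein level. ATF4 pairs with C/EBP proteins on composite sites called C/EBP-ATF response elements and activates genes for amino acid synthesis, uptake and tRNA charging, together with feedback genes that restore translation. NK cells need this supply, since growth and cytotoxic function draw on leucine, glutamine and serine.

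Promoter windows were taken from RefSeq (GRCh38.p14), from 250 bases before to 50 bases after each start site, and 33 of the 40 genes matched a window. The core of the C/EBP-ATF element, TGATGNAA on either strand, was present in a window of 11 of these 33 genes (33.3%), against 4.46% of the 27305 genes with a window. The genes were picked partly as ATF4 targets, so this share is not independent of how they were chosen. The 33 genes had 57 windows and the 27305 genes had 35116, so the windows per gene also differ. The cyclic AMP response element TGACGTCA, to which ATF family proteins also bind, was in 1 of 33 (3.03%, PPP1R15A) against 2.25% of all genes. No window of these genes held both motifs. Among the genes called at 24 h in any comparison, 3 of 14 with a window held TGATGNAA (21.4%). Among those not called, 8 of 19 did (42.1%). These 19 include CHAC1, STC2, PHGDH and SLC6A9, which were not tested and so could not be called. CHAC1 is among the 8, so the 2 shares do not compare called genes with tested genes that were not called. These 3 windows are shown because they are the ones in which the element and a called change meet, with the 8 letters of the match in capitals, read 5′ to 3′ on the strand of the gene. For ASNS the call is uncertain, since it ended once the counts of its read-through gene CZ1P-ASNS were added, as given below. A match is only a description of the letters.
ASNS, chr7:97872359-97872658 (minus strand): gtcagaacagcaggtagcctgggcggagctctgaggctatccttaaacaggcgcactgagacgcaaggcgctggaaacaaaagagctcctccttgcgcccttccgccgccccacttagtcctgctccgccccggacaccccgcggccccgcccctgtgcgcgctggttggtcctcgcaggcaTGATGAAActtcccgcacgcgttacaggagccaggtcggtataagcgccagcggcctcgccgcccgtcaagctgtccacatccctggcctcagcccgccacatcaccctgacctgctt
CEBPG, chr19:33373863-33374162 (plus strand): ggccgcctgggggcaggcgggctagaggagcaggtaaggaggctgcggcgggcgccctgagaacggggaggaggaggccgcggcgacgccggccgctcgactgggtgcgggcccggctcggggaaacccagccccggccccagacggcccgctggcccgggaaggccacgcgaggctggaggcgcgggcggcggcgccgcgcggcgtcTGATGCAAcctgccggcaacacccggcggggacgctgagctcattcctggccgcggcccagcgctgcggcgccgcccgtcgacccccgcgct
SLC3A2, chr11:62881449-62881748 (plus strand): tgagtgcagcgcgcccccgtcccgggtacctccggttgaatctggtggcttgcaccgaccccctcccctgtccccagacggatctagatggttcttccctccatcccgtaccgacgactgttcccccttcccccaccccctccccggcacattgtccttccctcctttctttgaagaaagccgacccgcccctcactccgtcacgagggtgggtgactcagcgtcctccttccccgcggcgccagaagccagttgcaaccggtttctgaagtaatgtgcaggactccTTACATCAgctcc
The match begins 68 bases before the start site in ASNS and 42 bases before it in CEBPG. In SLC3A2 it lies on the opposite strand, so that the capitals read as the reverse complement of TGATGTAA, and begins at base 38 after the start. The other 8 genes with a match were ATF3, CHAC1, JDP2, MTHFD1L, SLC1A4, SLC1A5, SLC38A1 and SLC7A1.

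In untreated cells, levels divided by transcript length (CPM per kb, with GENCODE lengths of the canonical transcript on GRCh38) spanned several orders of magnitude. ATF4 was highest at 274 CPM per kb, followed by the glutamine transporter SLC1A5 at 137, the mitochondrial serine hydroxymethyltransferase SHMT2 at 131 and the transporter heavy chain SLC3A2 at 127. PHGDH, the first enzyme of serine synthesis from glucose, was at 0 counts in all 10 libraries, while the later enzymes PSAT1 and PSPH were at 29.3 and 9.81 CPM per kb. NUPR1, a stress-induced cofactor, was also at 0 counts in all 10 libraries. CHAC1, a glutathione-degrading enzyme and one of the most inducible ATF4 targets, had 3 counts in DFO 24 h replicate 2 and 0 in the other 9 libraries. A count of 0 allows a level of up to 3 counts, which is 0.0209 to 0.0280 CPM depending on the library, and covers counting error only.

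**Figure D1:**
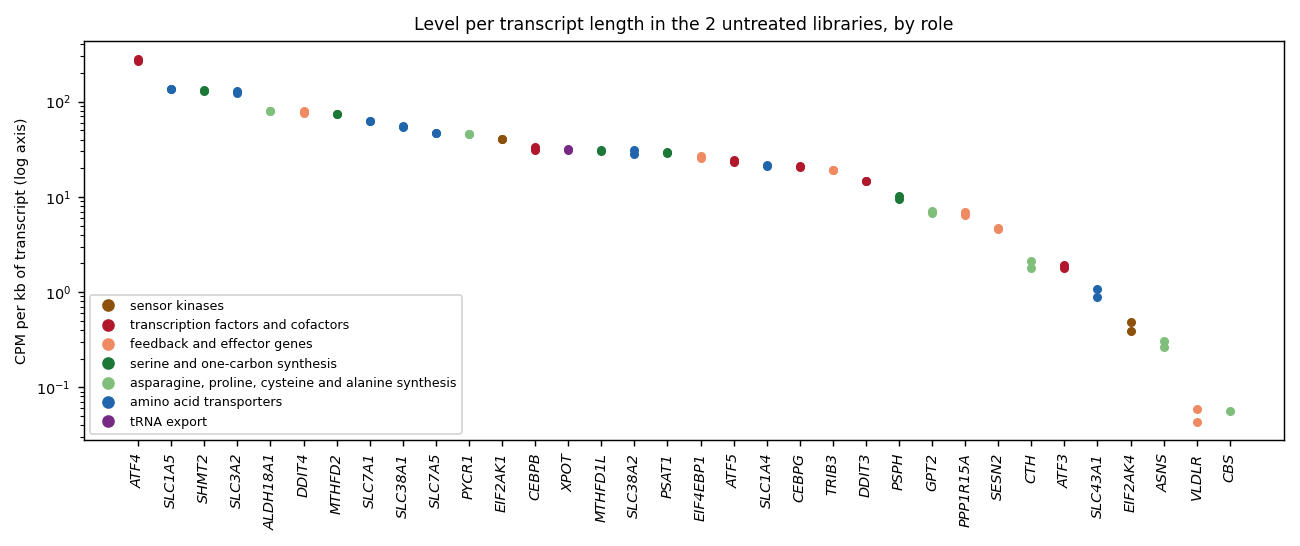
Level of the 34 genes with a count in an untreated library, in CPM per kb of transcript on a log axis, with 1 point for each of the 2 untreated libraries and colours for the genes' roles. ATF4 is highest at 274 CPM per kb, and EIF2AK4, ASNS, VLDLR and CBS are the 4 lowest of those drawn. CBS has 1 point because its other untreated library is at 0, and the 6 genes at 0 in both libraries are not drawn.

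At 24 h more of the genes fell than rose with either agent. With DFO for 24 h, 6 of the 35 tested genes fell and none rose: CEBPB, DDIT3, SLC3A2, SLC38A2, TRIB3 and ATF4. Across all tested genes 6.70% were called, 3.27% lower and 3.43% higher. In DESeq2, which called 1870 of all 20125 genes, 8 of the 35 fell and 1 rose with DFO for 24 h. With T003 for 24 h, 11 of 35 fell (CEBPB, DDIT3, CEBPG, TRIB3, SHMT2, PSAT1, ASNS, GPT2, SLC3A2, SLC38A2 and XPOT) and 3 rose (PPP1R15A, SLC7A5 and ATF5), where 12.5% of all tested genes were called, 5.44% lower and 7.10% higher. With the counts of its read-through gene CZ1P-ASNS added to ASNS, an alternative chosen after the data were seen, 10 of 35 fell and 3 rose with T003. There 2521 of 20124 genes were called. CEBPB, DDIT3, SLC3A2, SLC38A2 and TRIB3 were lower in both comparisons, which share the untreated libraries. The median log2 fold change of the 35 genes was -0.050 with DFO and -0.083 with T003, against -0.00229 and -0.00688 over all tested genes.

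**Figure D2:**
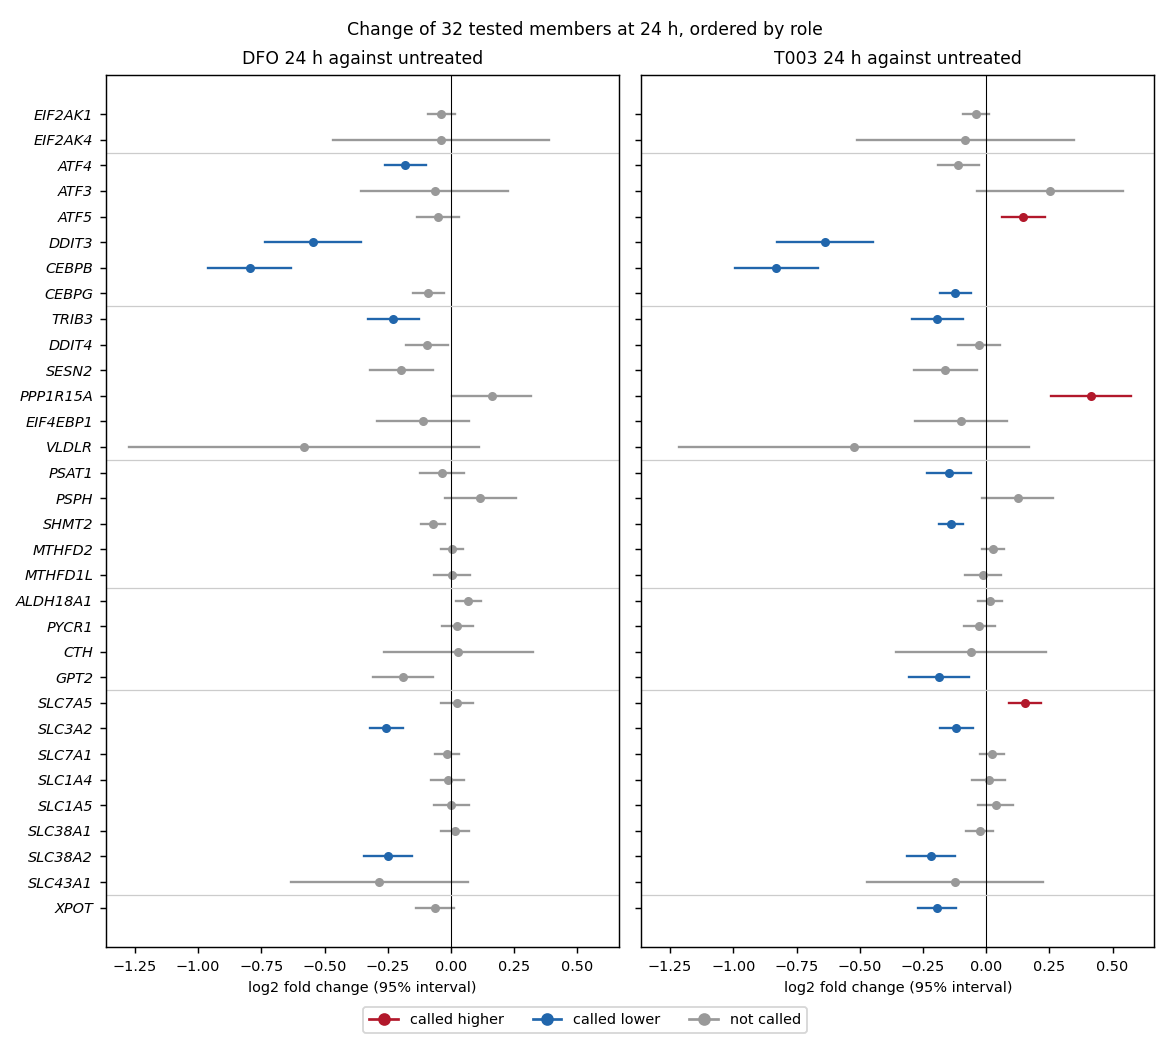
Log2 fold change of 32 tested genes at 24 h against untreated cells, with 95% intervals, DFO on the left and T003 on the right, ordered by role from sensor kinases at the top to tRNA export at the bottom. CEBPB and DDIT3 stand farthest to the left in both panels among the called genes drawn, and 3 genes (ATF5, PPP1R15A, SLC7A5) are called higher with T003. JDP2, CBS and ASNS, whose counts are low, are not drawn.

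Neither sensor kinase was called in any comparison. EIF2AK1 (HRI), the haem-regulated kinase, was at 174 and 176 CPM with DFO for 24 h, 172 and 177 with T003 for 24 h, 177 and 174 with DFO for 6 h, 173 and 176 with T003 for 6 h and 180.2 and 179 CPM in untreated cells. Its log2 fold change at 24 h was -0.037 with DFO (95% interval -0.089 to 0.014) and -0.041 with T003 (95% interval -0.093 to 0.011), and neither was called. EIF2AK4 (GCN2) was at 2.00 and 2.71 CPM with DFO for 24 h, 1.89 and 2.68 with T003 for 24 h, 2.67 and 2.86 with DFO for 6 h, 2.51 and 2.84 with T003 for 6 h and 2.66 and 2.18 CPM in untreated cells. Its log2 fold change at 24 h was -0.038 with DFO (95% interval -0.47 to 0.39) and -0.083 with T003 (95% interval -0.51 to 0.35), and the groups overlapped. EIF2AK1 shares 532 exonic bases with AIMP2 on the other strand, whose log2 fold change was 0.0031 with DFO and 0.11 with T003. No source used here gives the strand setting of the counting, and without it reads from such overlapping pairs cannot be told apart.

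Among the transcription factors CEBPB and DDIT3 fell most. CEBPB (chr20:50190583-50192690), a C/EBP protein that ATF4 induces and that is also an inflammatory regulator, was at 34.0 and 34.6 CPM with DFO for 24 h, 35.4 and 31.6 with T003 for 24 h, 53.4 and 62.8 with DFO for 6 h, 70.0 and 71.6 with T003 for 6 h and 57.0 and 62.1 CPM in untreated cells. Every 24 h library was below every untreated and every 6 h library. The change was -0.80 with DFO (SE 0.0743, adjusted p = 0.00013) and -0.83 with T003 (SE 0.0745, adjusted p = 6.23e-05) on the log2 scale. Its antisense neighbour CEBPB-AS1 had 120 to 276 counts per library, against 3942 to 9503 for CEBPB, with log2 fold changes of -0.28 and -0.67, neither called.

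DDIT3 (CHOP, chr12:57516588-57520517), a C/EBP family factor linked to cell death under prolonged stress, was at 8.78 and 9.30 CPM with DFO for 24 h, 7.81 and 9.16 with T003 for 24 h, 12.5 and 12.8 with DFO for 6 h, 13.5 and 14.7 with T003 for 6 h and 13.1 and 13.3 CPM in untreated cells. Again all 4 libraries at 24 h lay below the other 6. DDIT3 fell by 0.55 with DFO (SE 0.0858, adjusted p = 0.00344) and by 0.64 with T003 (SE 0.0861, adjusted p = 0.000815) on the log2 scale. DDIT3 shares 355 exonic bases with MARS1, the methionyl-tRNA synthetase on the other strand, which had 24705 to 32650 counts against 949 to 1951 for DDIT3. MARS1 changed by -0.072 with DFO (adjusted p = 0.194) and by -0.11 with T003 (adjusted p = 0.0282).

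ATF4 itself (chr22:39520559-39522686) was at 347 and 339 CPM with DFO for 24 h, 346 and 374 with T003 for 24 h, 383 and 374 with DFO for 6 h, 384 and 384 with T003 for 6 h and 378 and 399 CPM in untreated cells. Both DFO 24 h libraries and both T003 24 h libraries lay below both untreated libraries. The transcript fell by 0.18 with DFO (SE 0.0368, adjusted p = 0.0148) and its change with T003 was -0.11 (SE 0.0368, adjusted p = 0.082), which was not called. The DFO call was lost without DFO 24 h replicate 1 (adjusted p = 0.0558), DFO 24 h replicate 2 (0.118) or untreated replicate 2 (0.171). With T003 the gene was called without T003 24 h replicate 2 (adjusted p = 0.0225), with no filter on low counts (0.0442), with a minimum of 1 CPM (0.0393) and in DESeq2 (0.0086), so the 2 agents are not separated by ATF4 being called in 1 of them. These are transcript levels, and ATF4 protein was not measured.

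CEBPG, a C/EBP protein that pairs with ATF4 on amino acid response genes, was at 71.93 and 72.84 CPM with DFO for 24 h, 71.90 and 69.77 with T003 for 24 h, 75.1 and 76.4 with DFO for 6 h, 76.9 and 76.8 with T003 for 6 h and 76.2 and 77.9 CPM in untreated cells. It fell by 0.12 with T003 (SE 0.0277, adjusted p = 0.0153), and its change with DFO was -0.090 (adjusted p = 0.0858). All 4 libraries at 24 h were below both untreated libraries, and both T003 libraries were below both DFO libraries. The T003 call was lost in a fit of only the T003 24 h and untreated libraries (adjusted p = 0.0504), without T003 24 h replicate 2 (0.127) and without untreated replicate 2 (0.135).

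ATF5, a further factor translated under eIF2 phosphorylation, moved the other way with T003. Its levels were 47.2 and 45.7 CPM with DFO for 24 h, 53.9 and 52.7 with T003 for 24 h, 47.0 and 48.4 with DFO for 6 h, 48.0 and 49.1 with T003 for 6 h and 46.9 and 49.3 CPM in untreated cells. Only the T003 24 h pair lay above both untreated libraries with no overlap. It rose by 0.15 with T003 (SE 0.0378, adjusted p = 0.0265), a call lost without T003 24 h replicate 1 (adjusted p = 0.179), T003 24 h replicate 2 (0.0776) or untreated replicate 1 (0.21). ATF5 shares 565 exonic bases with NUP62 on the other strand, which had 27465 to 39115 counts against 5076 to 6741 for ATF5 and changed by 0.075 with T003 (adjusted p = 0.124).

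ATF3, an ATF family factor that is quickly induced by many stresses, was low at 3.33 and 3.57 CPM with DFO for 24 h, 3.89 and 4.71 with T003 for 24 h, 3.50 and 3.59 with DFO for 6 h, 4.48 and 3.67 with T003 for 6 h and 3.46 and 3.76 CPM in untreated cells, and was not called. JDP2, a repressor of the same family, had 9 and 23 counts with DFO for 24 h, 22 and 4 with T003 for 24 h, 0 and 0 with DFO for 6 h, 2 and 7 with T003 for 6 h and 0 and 0 in untreated cells. JDP2 was tested only because of its counts at 24 h, and it was not called (adjusted p = 0.0897 with DFO and 0.0687 with T003). All 4 libraries at 24 h had counts and no untreated library did, but at so few counts no fold is given.

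**Figure D3:**
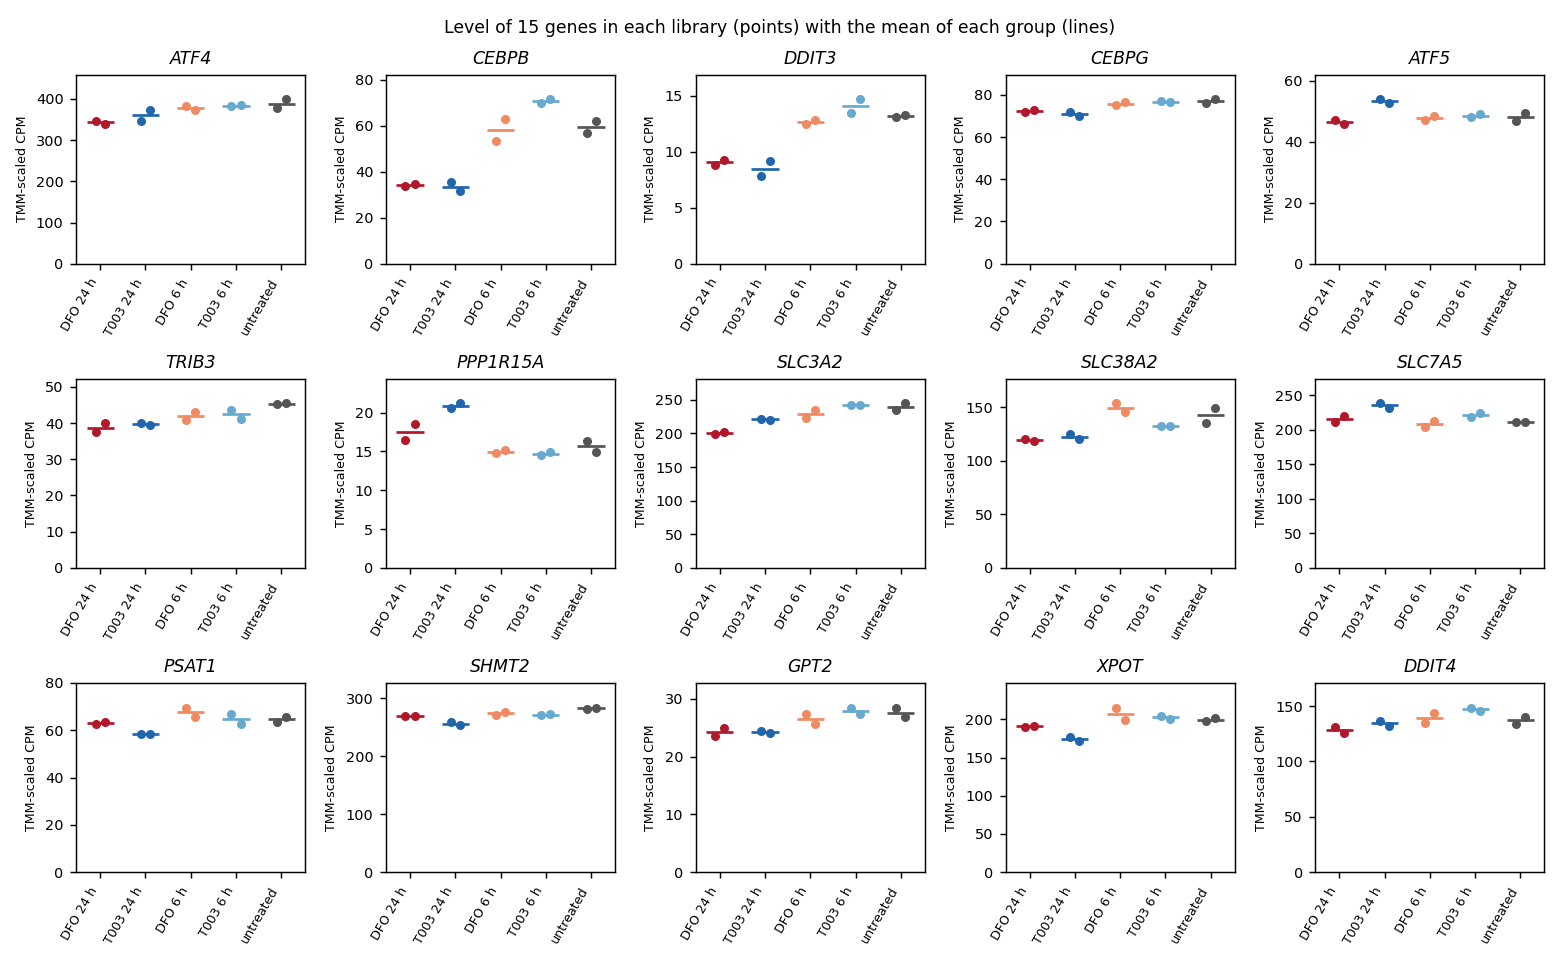
TMM-scaled CPM of 15 genes in each library (points) with group means (lines), in the order DFO 24 h, T003 24 h, DFO 6 h, T003 6 h and untreated, each panel starting at 0. The 4 libraries at 24 h of CEBPB lie at 31.6 to 35.4 CPM, below the other 6, while PPP1R15A is highest in the T003 24 h pair.

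The feedback and effector genes were split in direction. TRIB3, a pseudokinase that ATF4 and CHOP induce and that restrains ATF4, was at 37.4 and 40.0 CPM with DFO for 24 h, 40.0 and 39.3 with T003 for 24 h, 41.0 and 43.1 with DFO for 6 h, 43.6 and 41.1 with T003 for 6 h and 45.3 and 45.4 CPM in untreated cells. All 8 treated libraries were below both untreated libraries. TRIB3 fell by 0.23 with DFO for 24 h (SE 0.0456, adjusted p = 0.0131) and by 0.19 with T003 for 24 h (SE 0.0456, adjusted p = 0.0183). Without DFO 24 h replicate 1, untreated replicate 1 or untreated replicate 2 the DFO call was lost, with adjusted p of 0.11, 0.0605 and 0.108 in that order. The T003 call was lost without any 1 of T003 24 h replicates 1 and 2 (0.0691 and 0.118) and untreated replicates 1 and 2 (0.075 and 0.109).

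PPP1R15A (GADD34), the phosphatase subunit that dephosphorylates eIF2 and so reverses the response, was at 16.4 and 18.6 CPM with DFO for 24 h, 20.6 and 21.2 with T003 for 24 h, 14.8 and 15.2 with DFO for 6 h, 14.5 and 14.9 with T003 for 6 h and 16.3 and 14.99 CPM in untreated cells. Both T003 24 h libraries were above every other library. PPP1R15A rose by 0.42 with T003 (SE 0.0717, adjusted p = 0.00339) and its change with DFO was 0.16 (SE 0.0717, adjusted p = 0.255). The constitutive subunit of the same phosphatase, PPP1R15B, fell by 0.10 with T003 (adjusted p = 0.0315) and was at -0.075 with DFO (adjusted p = 0.139).

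DDIT4 (REDD1), an inhibitor of mTORC1, was at 131 and 125 CPM with DFO for 24 h, 137 and 132 with T003 for 24 h, 135 and 144.01 with DFO for 6 h, 149 and 146 with T003 for 6 h and 134 and 140.3 CPM in untreated cells. Neither 24 h comparison with untreated cells called it (-0.095 with DFO and -0.027 with T003). SESN2, a leucine sensor, ranged over 14.0 to 16.5 CPM and was at -0.20 with DFO (adjusted p = 0.0689) and -0.16 with T003 (adjusted p = 0.0966). At a minimum of 1 CPM it was called lower with DFO (adjusted p = 0.0393) and with T003 (0.0489), and limma-voom called it with DFO (0.0371). EIF4EBP1, a translation repressor, ranged over 18.7 to 22.4 CPM, and VLDLR, a lipoprotein receptor, over 0.255 to 0.602 CPM, with no call. STC2, a secreted glycoprotein, had counts in 3 of 10 libraries, at most 17.

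CHAC1, STC2, ATF3 and DDIT3 are usually among the most inducible genes of this response. Of these ATF3 and DDIT3 could be tested, and neither was called higher in any of the 8 comparisons. The share of all tested genes called higher was at most 7.55% in these comparisons. It was 3.43% with DFO for 24 h and 7.10% with T003 for 24 h against untreated cells. The absence of a higher call for ATF3 and DDIT3 is therefore not a result about these genes. A list of 9 handling and heat stress genes summed to 1031 to 1036 CPM with DFO for 24 h, 993 to 1020 with T003 for 24 h, 1105 to 1107 with DFO for 6 h, 1119 to 1138 with T003 for 6 h and 1080 to 1105 CPM in untreated cells. Of these 9, only the heat shock chaperones DNAJB1 and HSPH1 were called lower at 24 h against untreated cells. The shares of all genes called lower there were 3.27% with DFO and 5.44% with T003. DNAJB1 was at -0.29 with DFO and -0.40 with T003, and HSPH1 at -0.10 and -0.15, on the log2 scale. HSPA1A (-0.30 with DFO and -0.32 with T003) and HSPA1B (-0.26 and -0.31) had the same sign and were not called. EGR1, IER2 and FOS had values of the opposite sign. The immediate early gene EGR1 was at 0.59 with DFO (adjusted p = 0.173) and 0.71 with T003 (0.0668), IER2 at 0.18 with DFO (0.107) and 0.18 with T003 (0.0751), and FOS at 0.71 with DFO (0.136) and 0.44 with T003 (0.324). JUN was at -0.11 with DFO (0.262) and 0.14 with T003 (0.0921), and FOSB at -0.28 with DFO (0.569) and 0.29 with T003 (0.468). None of these was called against untreated cells at 24 h. JUN was called for DFO against T003 at 24 h (-0.25, adjusted p = 0.0386), where 0.884% of all genes were called lower. It was also called between 24 h and 6 h of T003 (0.19, adjusted p = 0.0281), where 7.55% of all genes were called higher. IER2 was called between 24 h and 6 h of DFO (0.31, adjusted p = 0.00887), where 5.29% of all genes were called higher. The part of this in the results above was not tested.

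Of the enzymes that make serine and one-carbon units, none was called with DFO for 24 h (6.70% of all genes) and 2 of 5 tested fell with T003 (5.44% of all genes). SHMT2, which splits serine into glycine and a one-carbon unit in mitochondria, was at 269 and 269.6 CPM with DFO for 24 h, 259 and 253 with T003 for 24 h, 272 and 276 with DFO for 6 h, 271 and 272 with T003 for 6 h and 281 and 284 CPM in untreated cells. Every treated library was below both untreated libraries, and the T003 24 h pair was lowest. SHMT2 fell by 0.14 with T003 (SE 0.0213, adjusted p = 0.00166) and was at -0.070 with DFO (adjusted p = 0.0859). With DFO it was called lower at a minimum of 1 CPM (adjusted p = 0.0498), in DESeq2 (0.0272) and in limma-voom (0.0498).

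PSAT1, the aminotransferase of serine synthesis, was at 62.6 and 63.6 CPM with DFO for 24 h, 58.4 and 58.4 with T003 for 24 h, 69.6 and 65.7 with DFO for 6 h, 66.99 and 62.7 with T003 for 6 h and 63.4 and 65.8 CPM in untreated cells. It fell by 0.15 with T003 (SE 0.0400, adjusted p = 0.036). That call was lost without T003 24 h replicate 1 (adjusted p = 0.126), T003 24 h replicate 2 (0.127), untreated replicate 1 (0.0569) or untreated replicate 2 (0.211). The mitochondrial folate enzymes MTHFD2, at 328 to 340.1 CPM over all libraries, and MTHFD1L, at 102 to 108 CPM, were within -0.011 and 0.028 of untreated cells with T003 on the log2 scale. PSPH, the last enzyme of serine synthesis, was at 0.12 with DFO and 0.12 with T003, not called.

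ASNS, asparagine synthetase and a classic ATF4 target, had few counts. Its row held 115 and 121 counts with DFO for 24 h, 23 and 21 with T003 for 24 h, 78 and 120 with DFO for 6 h, 15 and 45 with T003 for 6 h and 90 and 94 in untreated cells. The 4 T003 libraries were the lowest 4. In the ASNS row the log2 fold change was -1.92 with T003 (SE 0.368, adjusted p = 0.00604) and 0.43 with DFO (SE 0.324, adjusted p = 0.563), and DFO for 24 h was 2.35 above T003 for 24 h (SE 0.366, adjusted p = 0.0167).

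The table also has a row for the read-through gene CZ1P-ASNS, which in RefSeq spans chr7:97852117-97972358 and runs through ASNS (chr7:97851677-97928441). Its row held 47 and 53 counts with DFO for 24 h, 139 and 148 with T003 for 24 h, 38 and 55 with DFO for 6 h, 156 and 69 with T003 for 6 h and 68 and 70 in untreated cells. It was high in 3 of the 4 T003 libraries, in all of which ASNS was low. In T003 6 h replicate 2 ASNS was low and CZ1P-ASNS was within the untreated values. Its own log2 fold change with T003 for 24 h was 1.19 (SE 0.348, adjusted p = 0.0476). With the 2 rows summed, an alternative chosen after the data were seen, the locus held 162 and 174 counts with DFO for 24 h, 162 and 169 with T003 for 24 h, 116 and 175 with DFO for 6 h, 171 and 114 with T003 for 6 h and 158 and 164 in untreated cells. The summed log2 fold change was 0.18 with T003 for 24 h (SE 0.226, adjusted p = 0.727), and -0.047 for DFO against T003 at 24 h (SE 0.225, adjusted p = 0.964). Both ASNS calls thus ended and their direction turned, so the ASNS row does not show a lower output of the locus with T003. In the ASNS row alone, the T003 call was also lost without T003 24 h replicate 2 (adjusted p = 0.0545).

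**Figure D4:**
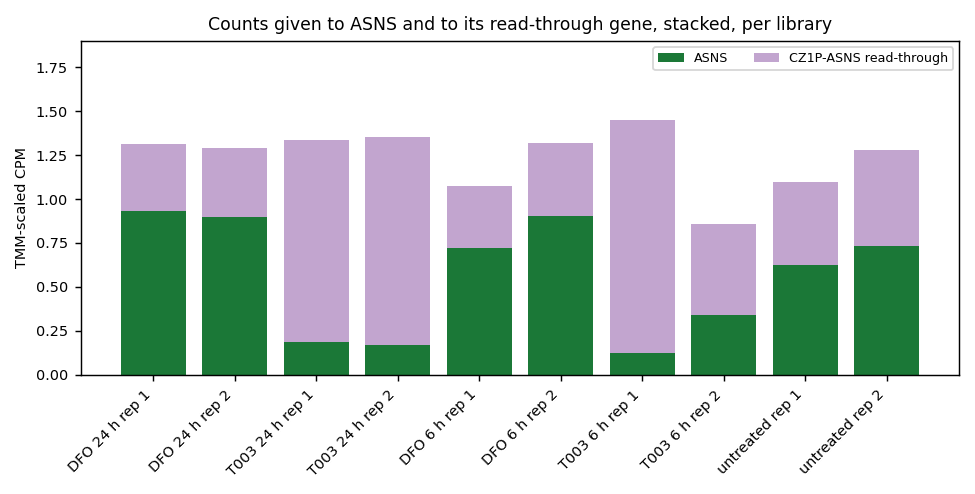
Counts of ASNS (green) and of its read-through gene CZ1P-ASNS (purple) in each library, stacked, as TMM-scaled CPM. The sums are 1.31 and 1.29 CPM with DFO for 24 h, 1.33 and 1.35 with T003 for 24 h, 1.07 and 1.32 with DFO for 6 h, 1.45 and 0.859 with T003 for 6 h and 1.10 and 1.28 in untreated cells, while the share given to ASNS is smallest in the T003 libraries.

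Of the other enzymes of amino acid synthesis only GPT2 was called. GPT2, the mitochondrial alanine aminotransferase, was at 23.5 and 25.0 CPM with DFO for 24 h, 24.5 and 24.0 with T003 for 24 h, 27.4 and 25.7 with DFO for 6 h, 28.5 and 27.3 with T003 for 6 h and 28.3 and 26.9 CPM in untreated cells. Both agents gave nearly the same 24 h values, below untreated cells, with -0.19 for T003 (SE 0.0544, adjusted p = 0.0475) and -0.19 for DFO (SE 0.0544, adjusted p = 0.0669). In this fit only T003 passed. GPT2 was also called lower with DFO at a minimum of 1 CPM (adjusted p = 0.0385), in DESeq2 (0.0251) and in limma-voom (0.0454). The 2 agents are therefore not separated by GPT2 being called in 1 of them. The T003 call was lost without any 1 of T003 6 h replicates 1 and 2 (adjusted p = 0.062 and 0.067), T003 24 h replicates 1 and 2 (0.138 and 0.204) and untreated replicates 1 and 2 (0.237 and 0.0941). The proline enzymes ALDH18A1 (263 to 283 CPM over all libraries) and PYCR1 (98.7 to 108 CPM) were not called, nor was the cysteine enzyme CTH (3.63 to 4.52 CPM). DESeq2 called ALDH18A1 higher with DFO for 24 h (0.070, adjusted p = 0.028). CBS, which joins homocysteine and serine on the way to cysteine, had 0 to 18 counts per library.

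Of the transporters, SLC3A2 and SLC38A2 fell with both agents. SLC3A2 (CD98 heavy chain, chr11:62856109-62888860), the chaperone subunit of several amino acid exchangers, was at 199.6 and 202 CPM with DFO for 24 h, 222 and 220.3 with T003 for 24 h, 223 and 235 with DFO for 6 h, 243 and 242 with T003 for 6 h and 235 and 245 CPM in untreated cells. The DFO 24 h pair was the lowest, the T003 24 h pair next, and the 6 h and untreated libraries overlapped. SLC3A2 fell by 0.26 with DFO (SE 0.0291, adjusted p = 0.000438) and by 0.12 with T003 (SE 0.0291, adjusted p = 0.0224). The T003 call was lost without T003 24 h replicate 1 (adjusted p = 0.0886), T003 24 h replicate 2 (0.134) or untreated replicate 2 (0.218).

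SLC7A5 (LAT1), the leucine-carrying light chain that pairs with SLC3A2, moved in the opposite direction with T003. Its levels were 211 and 219.6 CPM with DFO for 24 h, 238 and 232 with T003 for 24 h, 204 and 213 with DFO for 6 h, 219 and 225 with T003 for 6 h and 212 and 212 CPM in untreated cells. The T003 24 h pair was above every other library. It rose by 0.15 with T003 (SE 0.0287, adjusted p = 0.00557) and was at 0.026 with DFO (adjusted p = 0.735). The T003 call was lost without T003 24 h replicate 1 (adjusted p = 0.0663) or untreated replicate 2 (0.0537), and the pseudogene SLC7A5P2, with 809 to 1412 counts against 22084 to 30433, may share reads with it.

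SLC38A2 (SNAT2), a sodium-coupled carrier of small neutral amino acids that amino acid shortage induces, was at 121 and 119 CPM with DFO for 24 h, 125 and 120.2 with T003 for 24 h, 154 and 145 with DFO for 6 h, 132 and 132 with T003 for 6 h and 135 and 149.5 CPM in untreated cells. All 4 libraries at 24 h lay below the other 6. It fell by 0.25 with DFO (SE 0.0432, adjusted p = 0.00601) and by 0.22 with T003 (SE 0.0432, adjusted p = 0.00719). The DFO call was lost without DFO 24 h replicate 2 (adjusted p = 0.0571), and the T003 call without T003 24 h replicate 2 (0.0626) or untreated replicate 2 (0.0556).

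The other transporters were not called in any comparison. The arginine and lysine carrier SLC7A1 ranged over 447 to 471 CPM, the glutamine carriers SLC1A5 and SLC38A1 over 359 to 409.9 and 437 to 468 CPM, and the alanine and serine carrier SLC1A4 over 93.9 to 99.3 CPM. Their log2 fold changes at 24 h lay within -0.026 and 0.037 of untreated cells with T003, and within -0.015 and 0.016 with DFO. SLC43A1, a large neutral amino acid carrier, was at 1.74 to 2.72 CPM and was not called. SLC6A9, a glycine carrier, had at most 5 counts.

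XPOT, the nuclear export receptor for tRNA, was at 191 and 192 CPM with DFO for 24 h, 177 and 172 with T003 for 24 h, 216 and 199 with DFO for 6 h, 205 and 201 with T003 for 6 h and 198 and 201 CPM in untreated cells. The T003 24 h pair was the lowest, with no overlap. XPOT fell by 0.19 with T003 (SE 0.0340, adjusted p = 0.00376) and was at -0.061 with DFO (adjusted p = 0.383).

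At 6 h none of the 35 tested genes was called with either agent. With DFO for 6 h 0.0248% of all tested genes were called, and at an unadjusted p under 0.05 there were 5 of the 35 genes against 12.4% of all genes. DESeq2, with 434 calls over all 20125 genes, and limma-voom, with 25, also called none of the 35. With T003 for 6 h 0.0298% of all genes were called, and 8 of the 35 had an unadjusted p under 0.05 against 7.53% of all genes. DESeq2, with 69 calls over all genes, called CEBPB higher with T003 for 6 h (log2 fold change 0.25, adjusted p = 0.0386), and limma-voom called none of the 35. In edgeR the same gene was at 0.25 (SE 0.0730, adjusted p = 0.488), a value of the opposite sign to that at 24 h. Between DFO and T003 at 6 h no gene of the whole table was called (0%), and 7 of the 35 had an unadjusted p under 0.05 against 6.63% of all genes. DESeq2, with 6 calls over all genes, and limma-voom, with 1, called none of the 35 there either. The 8 genes with T003 for 6 h and the 7 between the agents both include JDP2 and the ASNS row. JDP2 was tested only because of its counts at 24 h. With the read-through counts added, the ASNS log2 fold change with T003 for 6 h was -0.048 in place of -1.52. Between the agents at 6 h it was 0.060 in place of 1.79. Neither count is therefore a clean comparison with the share of all genes.

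Set against each other at 24 h, the agents differed in 3 of the 35 genes, 1 higher and 2 lower with DFO, where 1.34% of all tested genes were called, 0.457% higher and 0.884% lower. The 1 higher was the ASNS row, whose call ended once the read-through counts were added (adjusted p = 0.964). Leaving out either DFO 24 h library also ended it (adjusted p = 0.0746 without replicate 1 and 0.0875 without replicate 2), as did leaving out either T003 24 h library (0.121 without replicate 1 and 0.152 without replicate 2). ATF5 was lower with DFO than with T003 by 0.20 (SE 0.0378, adjusted p = 0.0366) and SLC3A2 by 0.14 (SE 0.0292, adjusted p = 0.0497). ATF5 lost its call in a fit of only these 4 libraries (adjusted p = 0.102), without DFO 24 h replicate 1 or 2 (0.108 and 0.22), without T003 24 h replicate 1 or 2 (0.227 and 0.178) and without T003 6 h replicate 1 or 2 (0.0748 and 0.0804).

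SLC3A2 sat close to the threshold between the agents. It was not called without any 1 of DFO 24 h replicates 1 and 2 (adjusted p = 0.259 and 0.21), T003 24 h replicates 1 and 2 (0.258 and 0.241), T003 6 h replicates 1 and 2 (0.101 and 0.111) and untreated replicates 1 and 2 (0.0595 and 0.0715). With no filter on low counts it was at 0.0616, and in a fit of only the 4 libraries at 0.0719.

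For CEBPB, DDIT3, ATF4 and SLC38A2 no difference between the agents was called, and the intervals bound its size. DFO minus T003 at 24 h was 0.035 for CEBPB (95% interval -0.13 to 0.20), 0.092 for DDIT3 (-0.099 to 0.28), -0.070 for ATF4 (-0.15 to 0.011) and -0.031 for SLC38A2 (-0.13 to 0.064), on the log2 scale. SLC7A5 was at -0.13 (-0.19 to -0.063, adjusted p = 0.0622) and PPP1R15A at -0.25 (-0.41 to -0.097, adjusted p = 0.125). XPOT was at 0.13 (adjusted p = 0.0947) and SHMT2 at 0.071 (adjusted p = 0.148), so edgeR called none of these 4 between the agents. DESeq2 did call all 4, with adjusted p of 0.00105 for SLC7A5, 0.00387 for XPOT, 0.0242 for PPP1R15A and 0.0415 for SHMT2. In this comparison DESeq2 called 878 of all 20125 genes, against 270 in edgeR. SLC7A5 was also called by limma-voom (0.0393), and XPOT in edgeR with no filter (0.0499) and without DFO 6 h replicate 1 (0.0333) or replicate 2 (0.0315). A difference that is not called does not show that the agents act alike.

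Between 24 h and 6 h of the same agent, CEBPB and DDIT3 again fell most. With DFO, 5 of 35 fell and none rose, where 9.89% of all tested genes were called, 4.60% lower and 5.29% higher. In DESeq2, which called 2533 of all 20125 genes, 7 of 35 fell and 4 rose (SLC1A5, ALDH18A1, PYCR1 and PPP1R15A). In limma-voom, which called 2134 of all genes, 5 fell and 1 rose (ALDH18A1), so the absence of rises depends on the method. CEBPB was lower at 24 h by 0.76 (SE 0.0744, adjusted p = 0.000107), DDIT3 by 0.48 (SE 0.0860, adjusted p = 0.00498), SLC38A2 by 0.32 (adjusted p = 0.000899), SLC3A2 by 0.19 (adjusted p = 0.00228) and ATF4 by 0.14 (adjusted p = 0.0333). DDIT3 lost its call without DFO 24 h replicate 1 (0.0522). ATF4 lost it without DFO 6 h replicate 1 or 2 (0.198 and 0.0721), DFO 24 h replicate 1 or 2 (0.0969 and 0.203) and T003 6 h replicate 1 or 2 (0.052 and 0.0623).

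With T003, 9 of 35 fell and 2 rose between 6 h and 24 h, where 13.5% of all tested genes were called, 5.93% lower and 7.55% higher. CEBPB was lower at 24 h by 1.08 (SE 0.0746, adjusted p = 9.10e-06) and DDIT3 by 0.73 (SE 0.0862, adjusted p = 0.00029). PPP1R15A rose by 0.51 (SE 0.0719, adjusted p = 0.000927) and ATF5 by 0.14 (adjusted p = 0.0368). The other 7 that fell were XPOT (-0.22), GPT2 (-0.20), PSAT1 (-0.15), SLC3A2 (-0.13), DDIT4 (-0.13), CEBPG (-0.12) and SHMT2 (-0.085). CEBPB, DDIT3, PPP1R15A and XPOT kept their call under every alternative tried, and the number of calls was 4, 5, 6 and 5 without T003 6 h replicate 1, T003 6 h replicate 2, T003 24 h replicate 1 and T003 24 h replicate 2, in that order.

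The other 7 calls between 24 h and 6 h of T003 were each lost when 1 library was left out. Without T003 6 h replicate 1, adjusted p was 0.251 for ATF5, 0.0827 for CEBPG, 0.188 for DDIT4, 0.209 for PSAT1, 0.0832 for SHMT2, 0.184 for GPT2 and 0.0624 for SLC3A2. Without T003 6 h replicate 2, it was 0.105 for ATF5, 0.1 for CEBPG, 0.131 for DDIT4, 0.133 for SHMT2, 0.0801 for GPT2 and 0.073 for SLC3A2. Without T003 24 h replicate 1, it was 0.236 for ATF5, 0.0774 for DDIT4, 0.105 for PSAT1, 0.106 for GPT2 and 0.0538 for SLC3A2. Without T003 24 h replicate 2, it was 0.0969 for ATF5, 0.124 for CEBPG, 0.234 for DDIT4, 0.102 for PSAT1, 0.18 for SHMT2, 0.154 for GPT2 and 0.0783 for SLC3A2. ATF5 was also lost without untreated replicate 1 (0.0502) and with no filter on low counts (0.0679).

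Other genes of the same pathways, from lists chosen with earlier results of these data known, gave the surroundings of these changes at 24 h. Their counts stand against the shares of all tested genes, which were 3.43% higher and 3.27% lower with DFO for 24 h, and 7.10% higher and 5.44% lower with T003 for 24 h. Of 23 tested further targets of the stress response, 6 fell and none rose with DFO for 24 h, and 8 fell and 1 rose with T003 for 24 h. SLC7A11, the cystine importer that pairs with SLC3A2, was at 40.6 and 39.1 CPM with DFO for 24 h, 37.9 and 35.6 with T003 for 24 h, 82.0 and 78.2 with DFO for 6 h, 74.9 and 75.2 with T003 for 6 h and 74.0 and 83.2 CPM in untreated cells. All 4 libraries at 24 h were below the other 6. The alanyl-tRNA synthetase AARS1 fell by 0.33 with DFO and 0.40 with T003, the endoplasmic reticulum stress gene HERPUD1 by 0.40 and 0.51, and the autophagy receptor SQSTM1 by 0.26 and 0.15. Of the light chains that pair with SLC3A2, SLC7A11 was thus called lower with T003, while SLC7A5 and SLC7A6 (0.15, adjusted p = 0.0114) were called higher.

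Among 16 genes of eIF2, its guanine nucleotide exchange factor eIF2B, its kinases and their regulators, 2 rose (against 3.43% of all genes) and none fell (3.27%) with DFO for 24 h, and 2 rose (7.10%) and 2 fell (5.44%) with T003 for 24 h. The 2 that fell were PPP1R15B, described above, and IMPACT, an inhibitor of GCN2 activation, at -0.12 (adjusted p = 0.0375). The eIF2 alpha subunit EIF2S1 rose by 0.087 with DFO and 0.13 with T003, and the gamma subunit EIF2S3 by 0.079 with DFO. EIF2S3 was at 0.055 with T003 (adjusted p = 0.0982). GCN1, the ribosome-bound activator of GCN2, rose by 0.10 with T003 and was at -0.0036 with DFO (adjusted p = 0.973).

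Of 20 further serine, glycine and one-carbon genes, 3 rose and none fell with DFO (3.43% and 3.27% of all genes), and 2 rose and 2 fell with T003 (7.10% and 5.44%). MAT2A, which makes S-adenosylmethionine, rose by 0.13 with DFO and was at 0.038 with T003 (adjusted p = 0.514). The glycine cleavage protein GCSH rose by 0.19 with DFO, and its partner DLD fell by 0.15 with T003. The mitochondrial folate carrier SLC25A32 rose by 0.12 with DFO and 0.15 with T003, and the mitochondrial serine carrier SFXN1 rose by 0.11 with T003.

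Of 16 tested genes for other amino acid synthesis and breakdown, none fell at 24 h with either agent. Of all tested genes 3.27% were lower with DFO for 24 h and 5.44% with T003 for 24 h. The absence of falls is therefore not a result about this list. Glutamine synthetase, GLUL, was at 414 and 419 CPM with DFO for 24 h, 469 and 474 with T003 for 24 h, 387 and 393 with DFO for 6 h, 394 and 395 with T003 for 6 h and 407 and 403 CPM in untreated cells. GLUL rose by 0.22 with T003 (adjusted p = 7.36e-05) and was at 0.040 with DFO (adjusted p = 0.32), and DFO was lower than T003 at 24 h by 0.18 (SE 0.0200, adjusted p = 0.00462). Arginase 2, ARG2, was at 0.18 with DFO and 0.14 with T003, and ornithine decarboxylase, ODC1, at 0.012 and 0.067, none called.

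Of 21 tested further amino acid transporters, 2 rose and 2 fell with DFO (3.43% and 3.27% of all genes), and 4 rose and 2 fell with T003 (7.10% and 5.44%). SLC66A1, a lysosomal exporter of cationic amino acids, fell by 0.41 with DFO and 0.55 with T003, and the taurine carrier SLC6A6 by 0.28 and 0.23. The mitochondrial glutamate carrier SLC25A22 rose by 0.22 with DFO and 0.29 with T003, and the ornithine carrier SLC25A15 rose by 0.24 with DFO and was at 0.17 with T003 (adjusted p = 0.0541). Of 33 tested genes that carry the amino acid signal to mTORC1, none rose, 2 fell with DFO (3.27% of all genes) and 3 fell with T003 (5.44%). In all, 6.06% of the list was called with DFO, against 6.70% of all genes, and 9.09% with T003, against 12.5%, so these counts are not a result about the list. TFE3, a lysosomal transcription factor, fell by 0.33 and 0.23, and TSC1, a subunit of the complex that restrains mTORC1, by 0.25 and 0.19. SESN1, a leucine sensor like SESN2, fell by 0.23 with T003 and was at -0.20 with DFO (adjusted p = 0.0983). SEH1L, a subunit of GATOR2, was at 0.13 with DFO and 0.11 with T003, not called. At 6 h no gene of these 6 lists was called with either agent. Only 0.0248% of all tested genes were called with DFO for 6 h and 0.0298% with T003 for 6 h. This is therefore not a result about the lists.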

How the data were processed

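RNA was sequenced as 101 bp paired ends. Per the submitters' processing notes and the design text of the series, the authors trimmed reads with fastp 0.21.0, mapped them to hg38 with HISAT2 2.2.1 and deposited estimated counts per gene from StringTie 2.1.6 with RefSeq annotation. These are whole numbers derived from coverage, so reads shared by overlapping genes are divided by the program. No source used here gives the strand setting.

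Counts of all 10 libraries were fitted together in edgeR 4.0.16 (R 4.3.3) with group as the only term, TMM scaling, filterByExpr with a minimum count of 10, the quasi-likelihood test and Benjamini-Hochberg adjustment over 20125 genes. Alternatives were RLE scaling, no filter, at least 1 CPM in 2 libraries, DESeq2 1.42.0, limma-voom (limma 3.58.1), a block for replicate number, only the compared groups, and each library left out. Summing ASNS and CZ1P-ASNS was added after the data were seen.

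The genes and all lists were chosen with earlier results of these data known. Genes called in any comparison, and ATF4, ATF3, DDIT3, CHAC1, TRIB3, ASNS, EIF2AK1 and EIF2AK4, are given per library. From each related list the 3 genes of smallest unadjusted p at 24 h with each agent are named, with the overlapping genes that bear on a value. A result of 1 such list is not reported here. Intervals and floors cover counting error or the fitted spread only. Samples with the same replicate number did not deviate together, so the numbers were not treated as pairs.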

Additional observations from a re-analysis of the deposited data

Results flagged for a closer look

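The following results are given because a test of the difference itself, edgeR's quasi-likelihood test over all genes, separated the effects of 2 agents at the same time or of 2 times of the same agent. Values are log2 differences, and none is weighed here.

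Between the agents at 24 h, DFO minus T003, ATF5 differed by -0.20, the ASNS row by 2.35 and SLC3A2 by -0.14. The ASNS difference is the largest of the 3, and it was -0.047 once the counts of the read-through gene were added.

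Between 24 h and 6 h of DFO, CEBPB differed by -0.76, DDIT3 by -0.48, SLC38A2 by -0.32, SLC3A2 by -0.19 and ATF4 by -0.14, all lower at 24 h.

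Between 24 h and 6 h of T003, CEBPB differed by -1.08, DDIT3 by -0.73, XPOT by -0.22, GPT2 by -0.20, PSAT1 by -0.15, SLC3A2 by -0.13, DDIT4 by -0.13, CEBPG by -0.12 and SHMT2 by -0.085, all lower at 24 h. PPP1R15A was higher at 24 h by 0.51 and ATF5 by 0.14.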

How the results depend on the processing

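Of the 39 calls of single genes, 15 held under all 18 alternatives tried. ASNS had no value under the minimum of 1 CPM, which it did not reach, and its adjusted p in DESeq2 was NA. They are CEBPB, DDIT3 and SLC3A2 with DFO for 24 h, CEBPB, DDIT3, PPP1R15A, SHMT2 and XPOT with T003 for 24 h, CEBPB, SLC3A2 and SLC38A2 between 24 h and 6 h of DFO, and CEBPB, DDIT3, PPP1R15A and XPOT between 24 h and 6 h of T003. Over all alternatives and calls there were 698 values, of which 601 kept the call, 95 kept the direction and lost the call, and 2 turned. Those 2 are the ASNS calls with its read-through gene added, at 0.18 for T003 24 h against untreated cells and -0.047 for DFO against T003 at 24 h.

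The number of called genes among the 35 moved with DESeq2 to 1 for T003 6 h, to 6 for DFO against T003 at 24 h and to 11 for DFO 24 h against 6 h. For DFO against T003 at 24 h, against 3 in the report, it was 1 in a fit of only those groups. Leaving out 1 library gave 4 to 6 calls for DFO 24 h, 7 to 14 for T003 24 h (7 without T003 24 h replicate 2 or untreated replicate 2, 8 without T003 24 h replicate 1), 0 to 4 for DFO against T003 at 24 h, 4 to 6 for DFO 24 h against 6 h, 4 to 12 for T003 24 h against 6 h and 0 at 6 h. Where this left a group with 1 library, that library was assumed to vary like the others.

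With the replicate number as a block, DFO against T003 at 24 h had 1 call, and GPT2 with T003 for 24 h was at adjusted p = 0.0597, ATF5 and SLC3A2 between the agents at 0.0583 and 0.0573, and ATF5 and DDIT4 between 24 h and 6 h of T003 at 0.0525 and 0.0628. The block changed no other call of these genes. The correlation of same-numbered libraries' deviations was -0.0521 to 0.0125 over 10 pairs of groups, so the samples share only a number.

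Over all tested genes, calls numbered 434 with DESeq2, 25 with limma-voom and 2 with the block for DFO 6 h, against 5. They numbered 69 with DESeq2 and 1 with the block for T003 6 h, against 6. For DFO against T003 at 6 h they were 6 with DESeq2 and 1 with limma-voom, against 0. For DFO against T003 at 24 h they were 878 with DESeq2 and 55 in a fit of only those groups, against 270. Without 1 library they were 41 and 27 (DFO 24 h replicates 1 and 2), 16 and 14 (T003 24 h replicates 1 and 2) and 95 and 96 (T003 6 h replicates 1 and 2). A fit of only the compared groups gave 851 for DFO 24 h, against 1349, and 1293 for DFO 24 h against 6 h, against 1991. Without 1 library, DFO 24 h ran over 431 (without untreated replicate 2) to 1382, T003 24 h over 1085 (without untreated replicate 2) to 2545, against 2524, DFO 24 h against 6 h over 950 (without DFO 6 h replicate 1) to 1824, and T003 24 h against 6 h over 1336 (without T003 6 h replicate 1) to 2739, against 2714. The shares of all genes called move with these counts. Low counts limit ASNS, JDP2, CBS and VLDLR most.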
